A study of Mus musculus with 20 samples.

Results

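The 3' UTR peaks described here are the N6-methyladenosine (m6A) peaks whose deposited location label is the 3' untranslated region, the stretch of an mRNA between its stop codon and its poly(A) tail. They were taken by that label alone from the authors' peak tables of 5 stages of mouse male germ cells. There were 11455 of them among 84778 peaks (13.5%), on 3624 of the 11972 genes with any peak (30.3%). The stages were undifferentiated spermatogonia, the pool that holds the stem cells, type A1 spermatogonia, which have begun to differentiate, preleptotene spermatocytes at the entry to meiosis, pachytene/diplotene spermatocytes in meiotic prophase, and haploid round spermatids. All cells came from wild-type C57BL/6 mice, with no agent or allele added in any group, and the labels of these libraries state no age. Poly(A) RNA was sheared by sonication and pulled down with a polyclonal antibody to m6A, and each stage had 2 immunoprecipitated and 2 input libraries, so each value below has 2 replicates. The labels do not state that replicates came from separate animals, so their spread may be technical.

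m6A is written onto nascent mRNA by the Mettl3 and Mettl14 methyltransferase, mostly late in the transcript, around the stop codon and in the 3' UTR. The 3' UTR is also where microRNAs, Daz and Cpeb proteins bind to set the stability and translation of an mRNA, and YTH-domain and Igf2bp proteins that read m6A act on the same stretch. In the testis this layer of control matters because transcripts made in spermatocytes and round spermatids are stored and translated later.

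Mapped reads numbered between 9622068 and 22402907 in the 20 libraries. The type A1 libraries stood apart, with 68.3% to 87.5% of reads mapped against 92.8% to 97.6% in the other stages. The part of this mapping rate in the type A1 results below was not tested. Deposited enrichment values also sat on different scales. The median log2 enrichment of 3' UTR peaks (immunoprecipitate over input, mean of 2 replicates) was 2.94 in undifferentiated spermatogonia, 1.84 in type A1 cells, 2.85 in preleptotene cells, 2.83 in pachytene/diplotene cells and 1.78 in round spermatids, and the medians of all peaks ran in parallel at 3.01, 1.76, 2.92, 2.87 and 1.67. Levels are therefore set within a stage as a percentile among all its peaks. Of 42 somatic marker genes (Sertoli, Leydig, stromal and immune cells), 30 had a peak in undifferentiated spermatogonia, 1 (Col1a1) in type A1 cells, 6 in preleptotene cells and 0 in both later stages. Germ cell markers followed the labels in part. Gfra1 and Etv5, genes of the stem cell pool, had 5 and 4 peaks in undifferentiated spermatogonia, 3 and 2 in type A1 cells and none from preleptotene on. Other markers of that pool went otherwise. Zbtb16 still had 2 peaks in preleptotene cells, Id4 had 2 in pachytene/diplotene cells, and Nanos2 had no peak in any stage. Sycp1 and Sycp3 of the meiotic axis had peaks in all 5 stages. Peaks report methylation of detected transcripts and do not give the transcript's level.

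The share of peaks that lay in 3' UTRs was 13.0% in undifferentiated spermatogonia (2990 of 23031 peaks, Wilson 95% interval 12.6 to 13.4), 19.4% in type A1 (3179 of 16392, 18.8 to 20.0), 14.6% in preleptotene cells (2741 of 18749, 14.1 to 15.1), 9.77% in pachytene/diplotene cells (1529 of 15656, 9.31 to 10.2) and 9.28% in round spermatids (1016 of 10950, 8.75 to 9.84). The intervals cover counting error only. The 3 stages before meiotic prophase were higher than the last 2, and type A1 was highest, while the intervals of pachytene/diplotene cells and round spermatids overlapped. With the same number of peaks taken from each table, the 10950 with the highest enrichment, the shares were 12.1%, 21.0%, 14.2%, 9.72% and 9.28%, in the same order. Because each stage has a single peak list, this share has no replicate spread. The preleptotene sheet lacks the start and stop codon labels, and 4120 of its peaks have no label at all. Of the 2812 of these on transcripts where coding, stop codon and 3' UTR peaks bracketed the stop codon, 0 lay past the bracket, so none was added to the 3' UTR count.

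**Figure D1:**
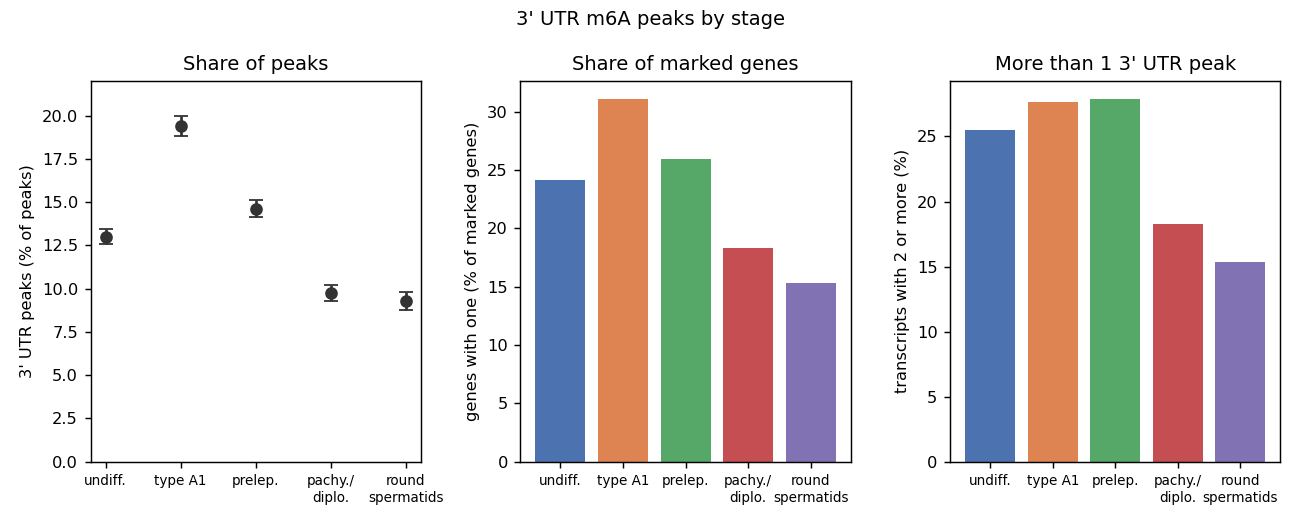
The left panel plots 3' UTR peaks as a percent of all peaks of each stage with Wilson 95% intervals, the middle panel genes with a 3' UTR peak as a percent of genes with any peak, and the right panel transcripts with 2 or more 3' UTR peaks as a percent of those with at least 1. All 3 measures are lower in pachytene/diplotene cells and round spermatids than in the first 3 stages, and the left panel runs from 9.28% in round spermatids to 19.4% in type A1 spermatogonia.

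Counted by gene, 24.1% of marked genes had a 3' UTR peak in undifferentiated spermatogonia (2194 genes), 31.1% in type A1 (2273), 25.9% in preleptotene cells (1934), 18.3% in pachytene/diplotene cells (1229) and 15.3% in round spermatids (858). Most of these transcripts carried a single 3' UTR peak. Those with 2 or more made up 25.5%, 27.6%, 27.9%, 18.3% and 15.4% across the stages in developmental order, and the mean was 1.36, 1.40, 1.42, 1.24 and 1.18 peaks per transcript. Neighbouring peaks were sometimes called without a gap between them, in 19.5% to 28% of neighbour pairs in the first 4 stages and 41.1% in round spermatids. Joining peaks within 100 nt of each other gave 1.24, 1.25, 1.29, 1.16 and 1.09 per transcript. Other settings changed the order. The 10950 best peaks of each table gave 1.20, 1.31, 1.28, 1.22 and 1.18, and a mean log2 enrichment of at least 2 gave 1.36, 1.20, 1.41, 1.24 and 1.07, so that undifferentiated spermatogonia in one and type A1 in the other came below pachytene/diplotene cells, while round spermatids were lowest in all 3.

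Some 3' UTRs held several called peaks. Purb, which encodes a nucleic acid-binding protein, had 7 of its 8 peaks in the 3' UTR in undifferentiated spermatogonia, 5 of 6 in type A1 cells, 6 of 7 in preleptotene cells, 1 of 2 in pachytene/diplotene cells and 0 of 1 in round spermatids. Lrrc58, a leucine-rich repeat gene, had 5, 4, 8, 5 and 1 such peaks, and the 8 in preleptotene cells were all of its peaks and the highest number on any transcript. Slc7a1, a transporter of cationic amino acids, had 5, 7, 2, 2 and 0. Acaca, the acetyl-CoA carboxylase that starts fatty acid synthesis, had 3, 7, 3, 5 and 5 and was the transcript with most 3' UTR peaks in round spermatids. Hunk, a protein kinase gene, had none in the first 3 stages, then 3 in pachytene/diplotene cells and 4 in round spermatids, which were all of its peaks there. Bbs1, a subunit of the complex that carries cargo into cilia, had 5 in pachytene/diplotene cells, against 2, 1 and 2 before them and 2 in round spermatids.

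Distance from the stop codon could be measured on transcripts whose stop codon was bracketed to within 150 nt by stop codon and coding sequence peaks alone, 1270 of 3724 transcripts with a stop codon peak. These held 14.4% to 16.8% of 3' UTR peaks in each stage. The median 3' UTR peak started 423 nt past the stop codon in undifferentiated spermatogonia (447 peaks), 380 nt in type A1 cells (478), 464 nt in preleptotene cells (455), 294 nt in pachytene/diplotene cells (257) and 145 nt in round spermatids (146). With only the first 3' UTR peak of each transcript taken, the medians were 230, 223, 234, 223.5 and 136.5 nt in the same order. Round spermatids alone stood apart on that measure. The share within 200 nt was 35.3%, 35.4%, 32.5%, 40.1% and 55.5%, with a Wilson 95% interval of 47.4 to 63.3 in round spermatids and 31.1 to 39.9 in undifferentiated spermatogonia, so these 2 did not overlap. These intervals cover counting error only and treat peaks of 1 transcript as separate. The 447 peaks of undifferentiated spermatogonia lay on 329 transcripts and the 146 of round spermatids on 133, and this share has no replicate spread. The share beyond 1000 nt was 27.5%, 24.1%, 31.0%, 22.6% and 13.7%. Near peaks were also the more enriched. Within 200 nt the median percentile among all peaks of the stage was 63.8, 73.4, 59.0, 61.2 and 60.7, and beyond 1000 nt it was 38.9, 47.9, 38.1, 32.7 and 49.1. Round spermatid transcripts that keep a peak need not be the same genes or the same isoforms as in earlier stages, and isoform use was not measured here.

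**Figure D2:**
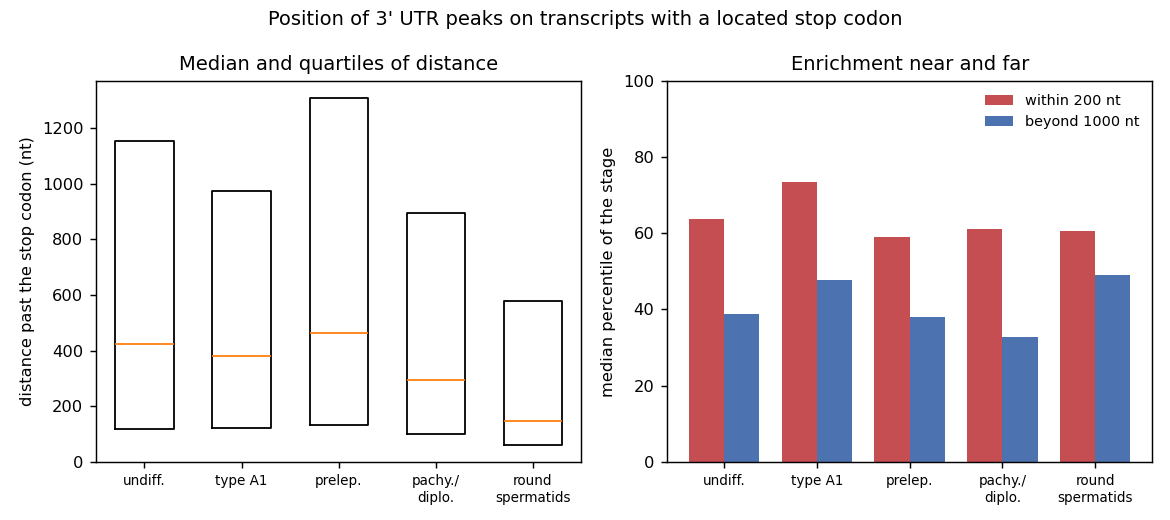
The left panel shows the median and quartiles of the distance in nt from the stop codon to the start of each 3' UTR peak, and the right panel the median percentile of enrichment of peaks within 200 nt and beyond 1000 nt of the stop codon. The median distance is 145 nt in round spermatids and 294 to 464 nt in the other stages, and near peaks have the higher percentile in every stage.

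Few genes kept a 3' UTR peak throughout. Of the 3624 genes, 1321 had a 3' UTR peak in a single stage, 839 in 2, 707 in 3, 417 in 4 and 340 (9.38%) in all 5, whereas 2894 (24.2%) of the 11972 marked genes had some peak in all 5. By site, 335 of 5199 overlapping sites (6.44%) were present in all 5 stages. The 340 genes were 15.5% of the 3' UTR genes of undifferentiated spermatogonia, 15.0% in type A1, 17.6% in preleptotene cells, 27.7% in pachytene/diplotene cells and 39.6% in round spermatids. There were 2109 genes with 3' UTR peaks in one or more of the first 3 stages and in neither of the last 2, and 385 with the reverse, of which 168 had a peak elsewhere on the transcript earlier. Of the 858 genes in round spermatids, 572 (66.7%) also had a 3' UTR peak in pachytene/diplotene cells, and these were 46.5% of the pachytene/diplotene genes. Genes with any peak also fell in number, at 9088, 7317, 7467, 6713 and 5613 in developmental order. The same splits over all marked genes are not given here, so these counts do not set 3' UTR peaks apart from other peaks.

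Among genes marked in all 5 stages, the 8 with the highest lowest percentile kept their strongest 3' UTR peak above the 94th percentile in each stage. Ccnyl1, a paralogue of cyclin Y, is on chromosome 1 (64691041 to 64725646, GRCm38.p6). Its strongest peak spanned transcript positions 936 to 1091 in undifferentiated spermatogonia and overlapped that span in every later stage. Its log2 enrichment in replicates 1 and 2 was 7.11 and 7.66 in undifferentiated spermatogonia, 5.00 and 4.69 in type A1, 7.19 and 6.41 in preleptotene cells, 8.15 and 7.31 in pachytene/diplotene cells and 5.32 and 4.86 in round spermatids. The means lay at or above the 99.7th percentile of each table, although the deposited values of type A1 and round spermatids were lower than those of the other 3 stages. Nxf1, the receptor that exports mRNA from the nucleus (chromosome 19, 8757103 to 8770910), had 6.38 and 7.74, 4.12 and 4.39, 6.14 and 6.44, 6.49 and 6.29, and 4.94 and 4.54 in the 5 stages in order. Kpna6, an importin alpha (chromosome 4, 129643979 to 129672767), had 7.15 and 7.41, 3.69 and 3.77, 6.43 and 6.01, 6.66 and 5.93, and 3.84 and 4.53. Both follow the scale of their tables, with every replicate of type A1 and round spermatids below every replicate of the other stages. Abhd12, a lipase that clears lysophosphatidylserine, and Nf1, which switches Ras off, came next. The remaining 3 were Aak1, a kinase of clathrin-coated vesicles, Smg1, the kinase of nonsense-mediated decay, and Atg13, which starts autophagy.

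**Figure D3:**
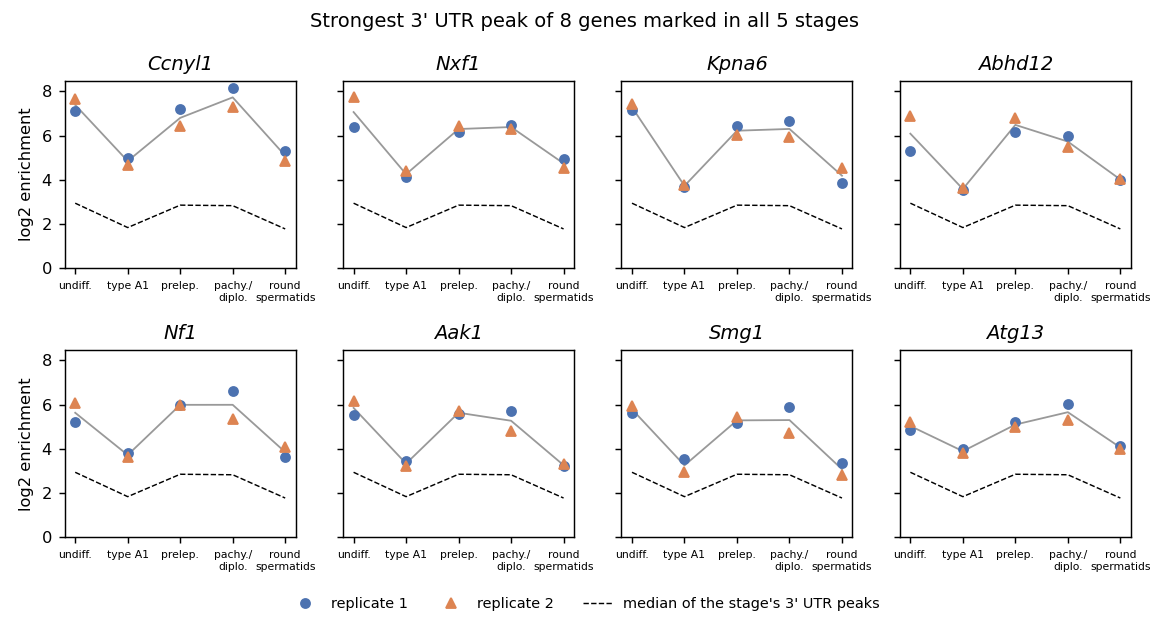
Each panel plots, for 1 gene, the log2 enrichment of its strongest 3' UTR peak in replicate 1 (circles) and replicate 2 (triangles) by stage, with their mean (grey line) and the median of all 3' UTR peaks of the stage (dashed line). All 8 genes lie above the dashed line in all 5 stages, and genes and median both dip in type A1 spermatogonia and round spermatids.

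Within a stage, the enrichment of 3' UTR peaks was close to that of coding sequence peaks. The median of 3' UTR peaks minus that of coding peaks was -0.06 in replicate 1 and 0.06 in replicate 2 of undifferentiated spermatogonia, 0.27 and 0.08 in type A1, -0.0041 and 0.042 in preleptotene cells, 0.06 and -0.03 in pachytene/diplotene cells, and 0.15 and 0.13 in round spermatids (log2 scale). Both replicates were above 0 in type A1 and also in round spermatids, while their sign differed in the other 3 stages. Within genes that hold both kinds of peak, the mean of replicates gave 0.062 in type A1 and -0.0066 in round spermatids, against 0.18 and 0.15 over all peaks. At a mean log2 enrichment of at least 2 the difference was 0.013 in type A1 and 0.058 in round spermatids. Against stop codon peaks, 3' UTR peaks were lower in both replicates of undifferentiated spermatogonia (-0.21 and -0.20), type A1 (-0.10 and -0.13) and pachytene/diplotene cells (-0.13 and -0.12). In round spermatids they differed by 0.02 and -0.02. The 3' UTR peak was the strongest of its gene in 61.0% of 3' UTR genes in type A1 and in 60.4% of those in round spermatids. In the other stages it was so in 45.4% to 48.2%.

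Each table also gives the enrichment at the same peaks in 1 other stage, which allowed the later stage to be set against the earlier peak by peak. Which stage that is was read from the values, because the headers do not say. Each replicate was centred on the median of all peaks of its table before the fit, so a peak that rose or fell did so relative to the other peaks. Differences changed along the transcript. In type A1 against undifferentiated spermatogonia the median difference (log2, later minus earlier) was -0.44 for 5' UTR peaks, -0.44 at start codons, -0.16 in coding sequence, 0.17 at stop codons and 0.35 in 3' UTRs. In preleptotene cells against type A1 the order was turned round, with 0.44, 0.42, 0.12, -0.15 and -0.43. For 3' UTRs the 4 pairings of a later with an earlier replicate gave medians of 0.23 to 0.50 in the first comparison and -0.56 to -0.30 in the second. In preleptotene cells against undifferentiated spermatogonia the 3' UTR median was 0.21 (0.12 to 0.31 over the pairings), beside 0.09 for 5' UTR and -0.02 for coding peaks. In round spermatids against pachytene/diplotene cells it was 0.05 (-0.04 to 0.15) at pachytene/diplotene peaks and 0.14 (0.06 to 0.19) at round spermatid peaks, beside -0.25 and -0.23 for 5' UTR peaks. Both comparisons with the steepest course along the transcript involve type A1, whose libraries had the lower mapping rate, and they share the type A1 samples.

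**Figure D4:**
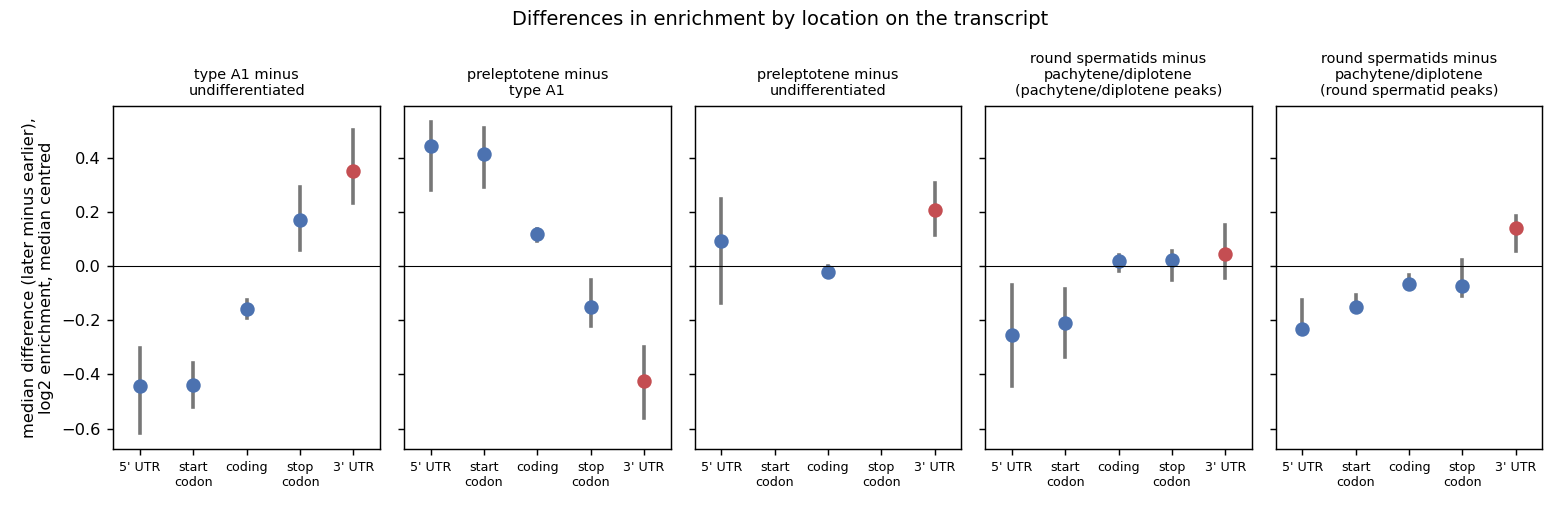
Points are the median difference in log2 enrichment, later minus earlier stage after median centring, by location from the 5' UTR (left) to the 3' UTR (right, red), and bars span the 4 pairings of replicates. In type A1 against undifferentiated spermatogonia the medians run up to 0.35 in 3' UTRs, in preleptotene cells against type A1 they run down to -0.43, and preleptotene peaks are shown without codon labels, which their sheet lacks.

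In type A1 against undifferentiated spermatogonia, 3' UTR peaks rose more often than they fell. Of 2973 tested at the peaks of undifferentiated spermatogonia, 636 (21.4%) rose and 144 (4.84%) fell with limma at an adjusted p of 0.05, while over all of its peaks 9.22% rose and 15.9% fell. Replicate medians over all peaks were 1.32 and 1.37 in type A1 against 2.80 and 3.27 in undifferentiated spermatogonia, and without centring 4 rose and 2287 fell. Leaving out a library gave 136 and 57 without the first type A1 replicate, 339 and 65 without the second, 751 and 233 without the first undifferentiated replicate and 995 and 252 without the second (rose and fell).

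The peaks that rose most were on Rfk, Arrdc2, Wdr26, Spns2 and Trak2. Rfk, riboflavin kinase, had 3.32 and 3.21 in type A1, against 1.95 and 2.64 in undifferentiated spermatogonia (centred difference 2.66 ± 0.26 SE, adjusted p = 0.000807). Spns2, a transporter of sphingosine-1-phosphate, had 3.77 and 3.56 in type A1, against 2.73 and 3.01 in undifferentiated spermatogonia (2.48 ± 0.26, adjusted p = 0.000975). For both genes the replicates did not overlap even as deposited. On the list of genes of undifferentiated spermatogonia, 7 of 22 tested 3' UTR peaks rose and 1 fell, on Bcl6b. On the list of spermatogonial differentiation, 3 of 13 rose and 2 fell, on Dnmt3a and Rara. Over all 3' UTR peaks 21.4% rose and 4.84% fell. Among genes of these lists, Foxo1, a transcription factor of stem cell maintenance, rose at both of its 3' UTR peaks. The first had 3.25 and 2.99 in type A1, against 2.74 and 3.41 in undifferentiated spermatogonia (1.73 ± 0.26, adjusted p = 0.00371), so deposited values overlapped and the difference comes after centring. Kit, the stem cell factor receptor of differentiating spermatogonia (chromosome 5, 75574987 to 75656722), had 3.21 and 3.07 in type A1, against 2.97 and 4.41 in undifferentiated spermatogonia (1.13 ± 0.34, adjusted p = 0.0414). Its deposited values overlapped and their mean was lower in type A1, so its rise appears only after centring.

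The peaks that fell most were on Arsb, Ppp2r5a, Eng, Smim10l1 and Igfbp5. All were called in undifferentiated spermatogonia and not in type A1, which set their direction in part. Ppp2r5a, a regulatory subunit of the phosphatase PP2A, had 0.44 and 0.50 in type A1, against 4.19 and 4.74 in undifferentiated spermatogonia (-2.30 ± 0.25, adjusted p = 0.0011). Eng, a TGF-beta co-receptor typical of endothelium, had 0.15 and -0.36 in type A1, against 3.99 and 3.54 in undifferentiated spermatogonia (-2.18 ± 0.36, adjusted p = 0.00482). Igfbp5, an insulin-like growth factor binding protein, had -0.22 and 0.36 in type A1, against 3.88 and 3.89 in undifferentiated spermatogonia (-2.12 ± 0.30, adjusted p = 0.00281). Type A1 values of these 3 peaks lay between -0.36 and 0.50, close to the level of the input. Somatic genes moved with this direction. Of 9 tested 3' UTR peaks on 4 somatic marker genes 4 fell and 0 rose, on Kitl, Pdgfra and Pdgfrb, beside the 4.84% of all 3' UTR peaks that fell. These peaks were tested because they were called in undifferentiated spermatogonia, so their direction was set in part by that choice. No somatic marker had a 3' UTR peak in type A1. Of the 42 markers 1 had a peak of any kind in type A1, against 30 in undifferentiated spermatogonia. Sox9, Wt1 and Amh of Sertoli cells were among those 30 and had no peak in type A1. Their part in the result was not tested.

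In preleptotene spermatocytes against type A1 the balance was the opposite. Of 3148 3' UTR peaks of type A1, 140 (4.45%) rose and 881 (28%) fell, beside 13.6% and 14.4% of all peaks. Replicate medians over all peaks were 2.79 and 2.84 in preleptotene cells against 1.78 and 1.73 in type A1, and without centring 1398 rose and 214 fell. The spread over peaks was also wider in preleptotene cells (SD 1.21 and 1.14) than in type A1 (0.68 and 0.66), and matching it by quantile normalisation gave 100 and 744. Without the first or second type A1 replicate 16 and 25 rose and 251 and 430 fell, and without the first or second preleptotene replicate 318 and 296 rose and 1259 and 1420 fell.

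The peaks that rose most were on Nemp1, Ppp6r3, Atl3, Lrrc58 and Pigu. Nemp1, a protein of the inner nuclear membrane, had 5.76 and 5.62 in preleptotene cells, against 2.18 and 2.27 in type A1 (2.41 ± 0.25, adjusted p = 0.00147). Those that fell most were on Mpped1, Gcnt1, Prtg, Myo1e and Wnt7b. Wnt7b, a secreted Wnt ligand, had 0.49 and 0.85 in preleptotene cells, against 3.01 and 3.0 in type A1 (-3.40 ± 0.25, adjusted p = 0.00104). In both genes the replicates of the stages lay far apart as deposited. The peaks that fell most, Wnt7b among them, were called in type A1 and not in preleptotene cells. Their direction was set in part by that choice. On the list of genes of the undifferentiated state, 13 of 16 tested 3' UTR peaks fell and 0 rose, beside the 28% of all 3' UTR peaks that fell. The median difference was -1.81 on the list and -0.43 over all 3' UTR peaks. These peaks were tested because they were called in type A1, and 2 of the 10 list members marked in preleptotene cells had a 3' UTR peak there. The 13 were on Ccnd2, Etv5, Foxo1, Gfra1, Itga6, Lin28a, Pou3f1 and Sall4. The 16 tested peaks lay on 10 genes, so peaks of 1 gene are counted more than once. Gfra1, the GDNF co-receptor (chromosome 19, 58235581 to 58455946), fell at all 3 of its 3' UTR peaks. Its strongest had 1.0 and 1.64 in preleptotene cells, against 2.26 and 2.12 in type A1 (-1.93 ± 0.28, adjusted p = 0.00357). Etv5, a transcription factor downstream of GDNF, fell at both of its peaks, and one of them had -0.04 and 1.51 in preleptotene cells, against 2.86 and 2.38 in type A1 (-2.95 ± 0.46, adjusted p = 0.00426). In growth factor and signalling genes 17 of 51 peaks fell and 0 rose, with a median difference of -0.55, near the share and the median of all 3' UTR peaks. Igf2bp2, an m6A reader, had 0.49 and 0.58 in preleptotene cells, against 2.22 and 2.23 in type A1 (-2.76 ± 0.24, adjusted p = 0.00121). Kit did not pass, with 4.68 and 4.08 in preleptotene cells, against 3.20 and 3.06 in type A1 (0.19 ± 0.29 after centring, adjusted p = 0.65).

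In preleptotene spermatocytes against undifferentiated spermatogonia, a comparison without type A1, fewer peaks passed. Of 2733 3' UTR peaks of preleptotene cells, 212 (7.76%) rose and 33 (1.21%) fell, beside 5.36% and 2.45% of all peaks. Quantile normalisation gave 95 and 19, and a fit with replicate number as a block 356 and 60. Without the first preleptotene replicate 125 rose and 18 fell, and without the second 95 and 11. The 5 highest were on Stxbp5l, Ago4, Ppp4r4, Slc7a14 and Slc22a23. These were called in preleptotene cells and not in undifferentiated spermatogonia, which set their direction in part. Ago4, an Argonaute protein with a role in meiotic silencing in mouse, had 5.43 and 5.48 in preleptotene cells, against 2.66 and 1.96 in undifferentiated spermatogonia (3.15 ± 0.41, adjusted p = 0.00217). Stxbp5l, a regulator of vesicle fusion, had 3.09 and 3.10 in preleptotene cells, against -0.49 and -0.26 in undifferentiated spermatogonia (3.47 ± 0.33, adjusted p = 0.000632). Regulators that act on 3' UTRs were themselves among the peaks that rose: 9 of 31 such peaks rose and 0 fell, beside the 7.76% of all 3' UTR peaks that rose. They were on Ago3 and Ago4 of microRNA silencing, the deadenylase genes Cnot6 and Cnot6l, and Celf2, an RNA-binding protein of splicing and AU-rich elements. The 31 peaks lay on 18 genes, so peaks of 1 gene are counted more than once. All were tested because they were called in preleptotene cells, so their direction was set in part by that choice. Cnot6l had 2.46 and 2.87 in preleptotene cells, against 0.62 and 1.71 in undifferentiated spermatogonia (1.5 ± 0.35, adjusted p = 0.0249). Tgfbr1, the type I receptor of TGF-beta, had 4 peaks there and rose at 3 of them. The 5 lowest were on Pdk1, Scd2, Dusp7, Map4k4 and Cbx7. Pdk1, which switches off pyruvate dehydrogenase, had 2.97 and 4.28 in preleptotene cells, against 6.79 and 6.00 in undifferentiated spermatogonia (-2.77 ± 0.50, adjusted p = 0.007). Cbx7, a Polycomb protein, had 2.95 and 3.66 in preleptotene cells, against 5.68 and 5.29 in undifferentiated spermatogonia (-2.18 ± 0.40, adjusted p = 0.00798). Rara, a retinoic acid receptor, had 3.56 and 3.97 in preleptotene cells, against 4.77 and 5.41 in undifferentiated spermatogonia (-1.32 ± 0.34, adjusted p = 0.034).

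Round spermatids were compared with pachytene/diplotene cells at the peaks of each. At the 1511 pachytene/diplotene 3' UTR peaks 58 (3.84%) rose and 111 (7.35%) fell, beside 1.71% and 7.06% of all peaks. At the 1001 round spermatid 3' UTR peaks 207 (20.7%) rose and 88 (8.79%) fell, beside 16.1% and 10.9%. The share that fell at pachytene/diplotene peaks was near that of all peaks. Each table holds peaks picked for being high in its own stage, and both tables use the same samples. Replicate medians over all peaks of the pachytene/diplotene table were 1.26 and 1.29 in round spermatids against 3.13 and 2.64 in pachytene/diplotene cells, and without centring 1 rose and 1362 fell there, and 56 and 603 at round spermatid peaks. Quantile normalisation gave 62 and 74, and 132 and 48. At pachytene/diplotene peaks 33 rose and 66 fell without the first pachytene/diplotene replicate, 24 and 80 without the second, and 12 and 61 without the first round spermatid replicate. At round spermatid peaks 68 rose and 22 fell without the first round spermatid replicate, and 82 and 28 without the second. Of 677 overlapping pairs of 3' UTR peaks across the 2 tables, 42 were called in both, all 42 in the same direction.

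Slc38a9, a lysosomal arginine sensor, was the peak that rose most among those of pachytene/diplotene cells, with 4.27 and 4.07 in round spermatids, against 2.91 and 2.09 in pachytene/diplotene cells (3.28 ± 0.29, adjusted p = 0.00151). Marchf5 and Marchf6, ubiquitin ligases of mitochondria and the endoplasmic reticulum, Pitpnm2 and Bco1 followed. In each of these the deposited values of the stages overlapped, so the difference comes after centring. Marchf5 had 4.10 and 3.47 in round spermatids, against 4.01 and 2.22 in pachytene/diplotene cells. Cd274, the ligand of the PD-1 receptor, fell at 2 peaks. The more distal had 0.08 and 0.07 in round spermatids, against 4.64 and 4.09 in pachytene/diplotene cells (-2.68 ± 0.27, adjusted p = 0.00184). Vkorc1l1, Slc7a1 and Mreg completed the 5 lowest. Slc7a1 had 0.58 and 0.32 in round spermatids, against 5.31 and 4.09 in pachytene/diplotene cells (-2.63 ± 0.33, adjusted p = 0.00305). At round spermatid peaks Insr, the insulin receptor, rose most, with 2.49 and 2.61 in round spermatids, against 0.26 and -0.42 in pachytene/diplotene cells (3.80 ± 0.25, adjusted p = 0.00031). Etnk1, an ethanolamine kinase of phospholipid synthesis, fell most, with 1.77 and 2.05 in round spermatids, against 6.01 and 5.57 in pachytene/diplotene cells (-2.71 ± 0.26, adjusted p = 0.000454). Sec63, Gtf2a1, Nemp1 and Znrf2 were the other 4. Nras, a Ras GTPase, fell at both of its pachytene/diplotene peaks and at its round spermatid peak, where it had 1.37 and 1.45 in round spermatids, against 4.45 and 4.39 in pachytene/diplotene cells (-1.84 ± 0.27, adjusted p = 0.00161). Rc3h2, a roquin that binds 3' UTR stem-loops, had 4.22 and 4.26 in round spermatids, against 4.87 and 3.03 in pachytene/diplotene cells (1.47 ± 0.41, adjusted p = 0.0288), with overlap as deposited.

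The X chromosome is silenced in pachytene spermatocytes and partly active again in round spermatids. Genes with a 3' UTR peak numbered 41 on the X in undifferentiated spermatogonia, 49 in type A1 cells, 45 in preleptotene cells, 3 in pachytene/diplotene cells and 12 in round spermatids. The X-linked genes with any peak on a coding transcript were 325, 251, 280, 4 and 120. At round spermatid peaks 9 of 12 tested X-linked 3' UTR peaks rose against pachytene/diplotene cells and 0 fell, against 198 and 88 of 989 on other chromosomes. The 12 peaks lay on 11 genes, and the 9 on 8 genes. The median difference was 2.88 on the X and 0.12 elsewhere. These peaks were tested because they were called in round spermatids, so their direction was set in part by that choice. At pachytene/diplotene peaks 3 X-linked 3' UTR peaks were tested, 0 rose and 0 fell with limma (1 had an unadjusted p under 0.05), and their median difference was 0.61. AV320801 had 2.28 and 2.41 in round spermatids, against 0.36 and -0.51 in pachytene/diplotene cells (3.6 ± 0.27, adjusted p = 0.00031). Pramel3, a member of the Prame family, rose at both of its peaks, which abut without a gap and may be a single site. Pramel3 at its more distal peak had 2.21 and 2.06 in round spermatids, against -0.19 and -0.36 in pachytene/diplotene cells (3.58 ± 0.26, adjusted p = 0.00031). Of the 9, the peaks of Gm7903 and Gm5128 had identical values in all replicates, so their reads may be shared between copies. An enrichment near 0 where few reads are present is imprecise, and the reads behind each peak are not used here.

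Gene lists differed widely in how often a marked gene had a 3' UTR peak, read beside the 30.3% of all marked genes over the 5 stages. Growth factor and signalling genes had one in 46 of 75 (61.3%), genes of undifferentiated spermatogonia in 16 of 29 (55.2%), ubiquitin ligases and deubiquitinases in 37 of 75 (49.3%), translational regulators that act on 3' UTRs in 25 of 55 (45.5%) and genes of spermatogonial differentiation in 11 of 27 (40.7%). Genes of 3' end processing had one in 11 of 31 (35.5%), m6A writers, erasers and readers in 10 of 28 (35.7%) and chromatin genes in 27 of 87 (31.0%). Lower shares were found in cell cycle genes (17 of 73, 23.3%), somatic markers (5 of 30, 16.7%), genes of spermiogenesis (10 of 73, 13.7%), the piRNA pathway (3 of 27, 11.1%) and the meiotic axis and recombination (5 of 49, 10.2%). Longer 3' UTRs offer more room for a peak, and 3' UTR length was not measured here.

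**Figure D5:**
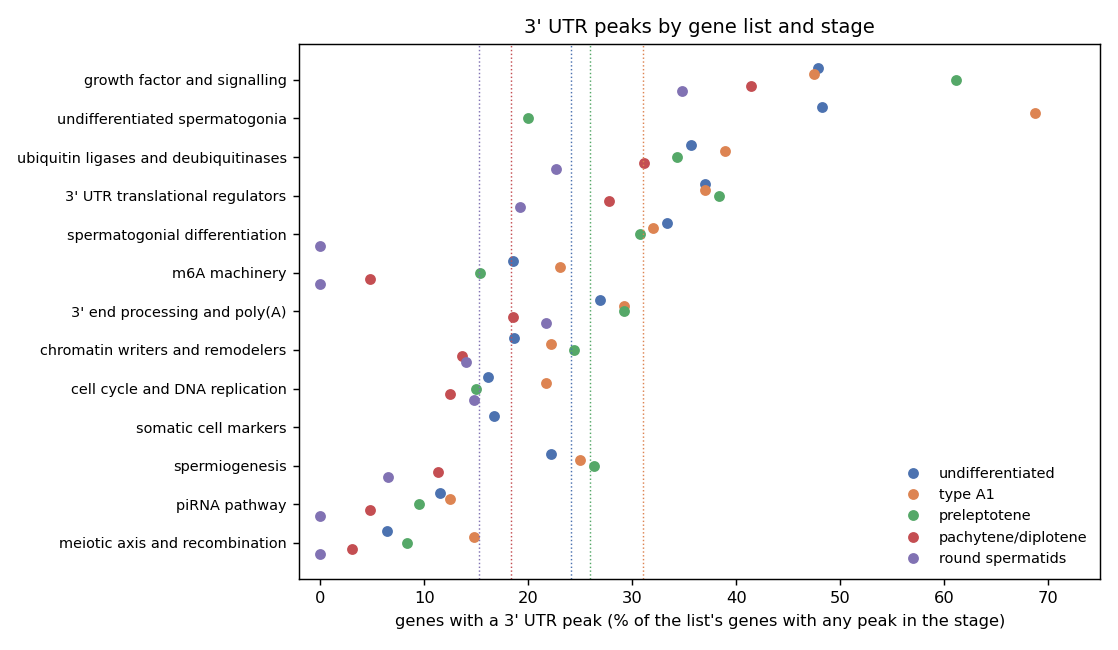
Points give, for each gene list and stage with at least 10 marked members, the genes with a 3' UTR peak as a percent of the list's genes with any peak in that stage, and dotted lines the percent over all marked genes of the stage. Growth factor and signalling genes lie above the line in all 5 stages (34.8% to 61.1%), and the meiotic and piRNA lists below it (0% to 14.8%).

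The signalling list stayed above the stage's share throughout, at 47.9%, 47.5%, 61.1%, 41.4% and 34.8% of its marked genes. Rictor, a subunit of mTORC2, had 2, 3, 2, 2 and 0 3' UTR peaks, Acvr2a, an activin receptor, 2, 0, 1, 1 and 1, and Kitl, the Kit ligand made by Sertoli cells, 3 in undifferentiated spermatogonia and none later. Genes of undifferentiated spermatogonia had 3' UTR peaks in 14 of 29 marked members at that stage, 11 of 16 in type A1, 2 of 10 in preleptotene cells, 0 of 3 in pachytene/diplotene cells and 1 of 3 in round spermatids. Bcl6b, a GDNF-responsive repressor, had 2.74 and 2.58 in type A1, against 5.90 and 5.52 in undifferentiated spermatogonia (-1.36 ± 0.32, adjusted p = 0.0182). Spermiogenesis genes were marked mainly late, 62 in pachytene/diplotene cells and 61 in round spermatids, but 7 and 4 of these had a 3' UTR peak (11.3% and 6.56%, beside 18.3% and 15.3% of all marked genes). Brdt, a testis bromodomain protein, was one, with 3.69 and 3.49 in undifferentiated spermatogonia, 3.99 and 3.52 in preleptotene cells, 6.46 and 4.83 in pachytene/diplotene cells and 3.13 and 3.14 in round spermatids. Catsper4, a sperm calcium channel subunit, had one in round spermatids alone. That peak had 2.17 and 1.97 in round spermatids, against 2.19 and 1.56 in pachytene/diplotene cells (1.37 ± 0.25 after centring, adjusted p = 0.00445), with overlap as deposited.

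Several genes known for control of or by 3' UTRs had no 3' UTR peak. Prm1, whose mRNA is stored through its 3' UTR in mouse, had a single peak in pachytene/diplotene cells and in round spermatids, both labelled start codon, and Prm2, Tnp1 and Tnp2 had no peak in any table. Dazl, Boll, Nanos3, Pum2, Cpeb2, Cpeb4, Ybx1 and Dicer1 had peaks in at least 1 stage and none in the 3' UTR. The same held for the writers Mettl3 and Mettl14, the reader Ythdf2, Stra8 and Meioc of meiotic entry, and Sycp1 and Sycp3. Others had 3' UTR peaks below the 34th percentile of their stage. Alkbh5, an m6A demethylase, had 1 in undifferentiated spermatogonia (1.86 and 2.22) and 2 in preleptotene cells, the stronger at 2.90 and 2.26. Ythdc2, the meiotic helicase that reads m6A, had 1 in preleptotene cells (2.34 and 1.72), and Crem, the transcription factor of round spermatids, 1 in pachytene/diplotene cells (2.16 and 1.77). The strongest 3' UTR peaks of Celf1 and Zfp36l2 ranked higher, except that of Celf1 in pachytene/diplotene cells, at percentile 33.4. Celf1, which binds GU-rich 3' UTR elements, had 2, 4, 2, 1 and 0 across the stages, and Zfp36l2, which binds AU-rich elements, had 1 in each of the first 3 stages. The lack of a called peak does not show that a 3' UTR is unmethylated.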

How the data were processed

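The data were m6A-seq of 5 stages of mouse male germ cells. The submitters' processing notes name TopHat2 2.0.14 and the mm10 build. The peak caller, its threshold, the annotation and any scaling are items not given in the sources used here. Per the file headers, the deposited workbook holds 1 peak list a stage with a log2 enrichment per replicate and a log2 ratio of it to another stage. That stage was identified from the values, since enrichment minus ratio correlated at r of 0.916 to 0.937 with overlapping peaks of the stage taken and at 0.375 to 0.686 with the others.

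Peaks labelled 3UTR were taken from each table. Symbols came from the gene table of GRCm38.p6, by gene ID for 11370 peaks, accession for 84 and synonym for 1. Counts behind peaks were not used, so depth per peak is unknown. Differences were fitted with limma 3.58.1 (lmFit and eBayes, R 4.3.3) on all peaks of a table, 2 against 2, median centred, without a replicate block, leaving out 43 to 188 peaks with a value of 0, and two-sided p were Benjamini-Hochberg adjusted over the table at 0.05. The labels give both stages the replicate numbers 1 and 2, and the check of these numbers did not show that they pair the samples. An overlap of 1 nt made 2 peaks 1 site. Genes named are, per stage, the 5 highest and the 3 with most 3' UTR peaks, the 10 with the highest lowest percentile over the stages, the 5 highest and lowest called peaks of each comparison, the 2 strongest of each list and stage, and a fixed set of 42, leaving out symbols of predicted genes. Not all are described, and some are not reported here. Other genes are named where a list's called peaks are counted, and Gm7903, Gm5128, Igf2bp2, Rc3h2 and other list members were picked out after their values were seen. The members and the 13 gene lists were chosen with earlier results of these data known. No transcript sequence was used, so sequence motifs were not analysed here.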

Additional observations from a re-analysis of the deposited data

Results flagged for a closer look

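Set against start codon peaks, 3' UTR peaks took opposite sides in both replicates of different stages. The median log2 enrichment of 3' UTR peaks minus that of start codon peaks was 0.19 in replicate 1 and 0.07 in replicate 2 of round spermatids, against -0.09 and -0.29 in pachytene/diplotene cells. It was -0.44 and -0.19 in undifferentiated spermatogonia. The difference between the stages was not tested. The preleptotene table has no start codon label, and the 2 replicates of type A1 fell on either side of 0.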

How the results depend on the processing

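Counts below are peaks higher and peaks lower in the later stage. Without median centring they were 4 and 2287 in type A1 against undifferentiated spermatogonia, 1398 and 214 in preleptotene cells against type A1, and in round spermatids against pachytene/diplotene cells 1 and 1362 at pachytene/diplotene peaks and 56 and 603 at round spermatid peaks, since the tables differ in scale. Quantile normalisation gave 88 lower in type A1 against undifferentiated spermatogonia, 95 and 19 in preleptotene cells against undifferentiated spermatogonia, and 132 and 48 at round spermatid peaks. A difference of at least 1 gave 93 higher in preleptotene cells against type A1. A mean enrichment of at least 2 gave 64 and 417 there and 88 and 33 at round spermatid peaks. Leaving out 1 library gave 136 to 995 higher and 57 to 252 lower (type A1 against undifferentiated), 16 to 318 and 251 to 1420 (preleptotene against type A1), 95 to 215 and 11 to 30 (preleptotene against undifferentiated), 12 to 49 and 61 to 102 (pachytene/diplotene peaks) and 68 to 222 and 22 to 109 (round spermatid peaks). A lone sample was assumed to vary like the other stage.

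With replicate number as a block, preleptotene cells against undifferentiated spermatogonia gave 356 and 60. Same-numbered samples deviated together at r of -0.13, -0.14, 0.12, 0.06 and 0.02 over the 5 comparisons. With 2 pairs each, these values cannot show whether the samples were paired. The crossed pairing, added after seeing the data, gave 877 and 211 in type A1 against undifferentiated spermatogonia and 188 and 1102 in preleptotene cells against type A1.

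Counting stop codon peaks with the 3' UTR gave shares of 22.4%, 34.2%, 24.4%, 19.6% and 20.3% in developmental order, with the preleptotene sheet lacking that label, and 844 genes in all 5 stages. A mean of at least 2 gave 21.5% in type A1 cells and 10.2% in round spermatids, 1.20 and 1.07 peaks per transcript, 144 genes and 138 sites in all 5 stages. Requiring both replicates at or above the highest of the tables' lowest peak means gave 21.0% and 10.3%. These 3 settings put round spermatids above pachytene/diplotene cells. The best 10950 peaks gave 12.1% in undifferentiated spermatogonia and 21.0% in type A1, and 1.20, 1.31 and 1.28 peaks per transcript in the first 3 stages, the first of them below the 1.22 of pachytene/diplotene cells. Labelled peaks alone gave 18.7% in preleptotene cells. Merging neighbours, added after seeing the data, gave 1.24, 1.25, 1.29, 1.16 and 1.09.

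The median of 3' UTR minus coding peaks was 0.013 in type A1 cells and 0.058 in round spermatids at a mean of at least 2, and 0.11 in round spermatids with means in place of medians. Without replicate 1 or 2 it was -0.0041 to 0.042 in preleptotene cells and 0.13 to 0.15 in round spermatids. Within genes that hold both it was -0.13 in undifferentiated spermatogonia, -0.075 in preleptotene cells, -0.076 in pachytene/diplotene cells and -0.0066 in round spermatids, where the sign turned. The cause of these changes was not tested. Depth per peak is unknown, and 2 replicates limit every fit. Motif counts in peaks were not run.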

Other observations

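Where the 3' UTR held the only peaks of a gene, the stages split otherwise than by share. This was so in 454 genes of undifferentiated spermatogonia (20.7% of its 3' UTR genes), 715 of type A1 (31.5%), 404 of preleptotene cells (20.9%), 256 of pachytene/diplotene cells (20.8%) and 302 of round spermatids (35.2%). Type A1 and round spermatids, the 2 stages with the lower deposited enrichment, had the larger shares. In the same 2 stages 3' UTR peaks were more frequent among the 25% of peaks with the highest enrichment than among the 25% with the lowest, at 21.6% and 15.5% in type A1 and 10.4% and 7.71% in round spermatids. In the others the order was turned, at 10.4% and 13.2% in undifferentiated spermatogonia, 12.2% and 14.8% in preleptotene cells and 8.74% and 9.58% in pachytene/diplotene cells. Peaks in 3' UTRs were narrower than coding peaks in every stage, with a median of 165, 186, 170, 169 and 172 nt in developmental order, against 179, 201, 187, 186 and 191 nt for coding peaks.

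The deposited label of peaks shared with the comparison stage was given to 68.3% of 3' UTR peaks and 54.7% of other peaks in undifferentiated spermatogonia, which are set against type A1. In type A1, set against preleptotene cells, it was given to 57.9% of 3' UTR peaks and 74.5% of other peaks. Elsewhere, too, 3' UTR peaks had it less often than other peaks, at 68.2% and 79.4% in preleptotene cells, 45.7% and 52.6% in pachytene/diplotene cells, and 67.9% and 73.1% in round spermatids.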
